A study of Homo sapiens with 6 samples.

Results

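The genes described here are 10 regulators and markers of the epithelial-mesenchymal transition (EMT), listed by symbol: CDH1, CDH2, EPCAM, VIM, SNAI1, SNAI2, ZEB1, ZEB2, ESRP1 and GRHL2. Of the 10, 9 had a row among the 29153 genes of the deposited table, and GRHL2 was not analysed here. A mean level of at least 0.5 FPKM (fragments scaled to gene length and sequencing depth) over the 6 libraries was required for the test, which 5 members passed (CDH1, CDH2, EPCAM, SNAI1 and ZEB1), among 13452 tested genes in all. VIM, SNAI2, ZEB2 and ESRP1 lay below that level and were read from a fit of all 29153 genes. Gene coordinates are those of the table, for the hg38 build.

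RNA was sequenced from HepG2 cells, a widely used line from a human liver tumour that grows as epithelial-like islands. The 3 sh-NC libraries came from cells given lentivirus with a non-targeting hairpin, and the 3 sh-LINC01977 libraries (labelled sh3) from cells given lentivirus with a hairpin against the long non-coding RNA LINC01977. Both groups carried a lentivirus for 72 h, and the study's methods describe puromycin selection of infected cells. LINC01977 was targeted with 1 hairpin, and no source used here says whether the replicates were separate cultures, so that p-values measure the spread between these libraries, which may be technical.

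EMT is the programme by which epithelial cells loosen their contacts and gain motility. Its best known readout is the cadherin switch, in which E-cadherin (CDH1), the adhesion protein of epithelial adherens junctions, gives way to N-cadherin (CDH2). The zinc finger repressors SNAIL (SNAI1), SLUG (SNAI2), ZEB1 and ZEB2 bind E-box motifs in the promoters of epithelial genes, CDH1 among them. GRHL2 and the splicing factor ESRP1 maintain the epithelial state, while vimentin (VIM) is an intermediate filament protein of mesenchymal cells. Hepatocytes are unusual among epithelia in that both E-cadherin and N-cadherin are present at their junctions.

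The total count per library lay between 49929024 and 60441515. Log2 CPM of the tested genes (counts scaled to the library total with TMM factors from edgeR) correlated at 0.985 to 0.987 between libraries of 1 group. Across groups the correlation was 0.977 to 0.979, so that no library stood apart from its group. The targeted gene LINC01977 (ENSG00000262772, chr17:79823452-79827704) had 4, 0 and 16 counts in sh-NC and 0, 0 and 4 in sh-LINC01977. The groups overlapped at 0 (edgeR quasi-likelihood test, adjusted p = 0.580), and these few counts were too low to check the group labels. Among 10 hepatocyte and HepG2 markers, 7 fell in sh-LINC01977 (edgeR, adjusted p under 0.05), beside 8.07% of all tested genes. The summed level of the 10 markers was 4447 to 4816 FPKM in sh-NC and 3131 to 3197 FPKM in sh-LINC01977. Of 7 fibroblast and stellate cell markers with a row, 1 of the 2 tested rose, beside 7.05% of all tested genes. The sum of the 7 markers was 3.39 to 4.58 FPKM in sh-NC and 6.32 to 8.51 FPKM in sh-LINC01977. PDGFRB rose (206, 260 and 373 counts in sh-NC, 898, 823 and 657 in sh-LINC01977; log2 fold change 1.47, adjusted p = 0.00620, edgeR), COL1A1 had a log2 difference of 0.73 (adjusted p = 0.0504, edgeR), and COL3A1 had 0 counts in all libraries but sh-LINC01977 replicate 2, which had 12. Endothelial markers summed to 1.08 to 1.33 FPKM in sh-NC and 0.98 to 1.23 FPKM in sh-LINC01977, leukocyte markers to 626 to 634 and 545 to 560 FPKM (LYZ alone 612 to 623 and 527 to 543 FPKM, while PTPRC had at most 4 counts), and cholangiocyte markers to 609 to 651 and 561 to 578 FPKM. Within these sums CD79A (log2 fold change 1.53, adjusted p = 0.00801) and KRT19 (0.57, adjusted p = 0.00129) rose, while LYZ (-0.27, adjusted p = 0.00537) and SPP1 (-0.59, adjusted p = 0.00130) fell (edgeR). The part of these shifts in the results on EMT genes was not tested. All libraries came from 1 cell line, and in bulk RNA a change in some of its cells cannot be told apart from a change in all of them.

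Start-site windows of 300 bases (250 before the start and 50 from it) were held for 4 members in RefSeq (GRCh38.p14), in 11 windows of CDH2, VIM, ZEB1 and ZEB2. Windows of CDH1, EPCAM, SNAI1, SNAI2, ESRP1 and GRHL2 were not analysed here. The E-box that SNAIL and ZEB proteins bind, CACCTG on either strand (read as CAGGTG on the other), was present in 7231 of 35116 windows of all genes (20.6%). Among the members it was present in 2 of the 7 ZEB1 windows and in no window of CDH2, VIM or ZEB2. The ZEB1 window with 3 matches (chr10:31318966-31319265, + strand) is printed with them in capitals, followed by a CDH2 window (chr18:28177081-28177380, - strand) and the VIM window (chr10:17227991-17228290, + strand), whose letters hold none. They are shown because ZEB1 is itself an E-box binding repressor, and CDH2 and VIM are the mesenchymal side of the switch.
ZEB1: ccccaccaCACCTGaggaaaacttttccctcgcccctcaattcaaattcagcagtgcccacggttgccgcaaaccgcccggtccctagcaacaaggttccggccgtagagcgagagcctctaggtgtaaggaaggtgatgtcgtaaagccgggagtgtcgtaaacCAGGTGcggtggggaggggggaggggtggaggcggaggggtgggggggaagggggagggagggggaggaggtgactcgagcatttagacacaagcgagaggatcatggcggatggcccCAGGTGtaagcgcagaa
CDH2: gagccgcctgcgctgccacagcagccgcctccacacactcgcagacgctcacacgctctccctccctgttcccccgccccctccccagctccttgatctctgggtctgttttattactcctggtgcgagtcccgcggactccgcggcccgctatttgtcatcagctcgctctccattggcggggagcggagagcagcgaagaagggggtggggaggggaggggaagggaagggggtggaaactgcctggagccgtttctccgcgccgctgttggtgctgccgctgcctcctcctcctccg
VIM: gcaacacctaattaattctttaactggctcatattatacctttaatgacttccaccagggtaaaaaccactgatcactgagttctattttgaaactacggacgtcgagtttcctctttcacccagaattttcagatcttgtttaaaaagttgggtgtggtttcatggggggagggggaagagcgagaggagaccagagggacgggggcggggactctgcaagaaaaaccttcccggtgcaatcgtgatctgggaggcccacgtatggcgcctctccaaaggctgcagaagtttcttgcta
A match is a description of the letters and not of binding. In the ZEB1 window the 3 matches lay at positions 9, 166 and 284 from the 5′ end. The last of them was downstream of the start site.

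The members spanned most of the range of expression in these cells, from percentile 13.5 (SNAI2) to percentile 97.8 (EPCAM) of all genes in the table. EPCAM, a cell surface adhesion protein of epithelia and liver progenitors, was highest at a mean of 49.6 FPKM over the 6 libraries. CDH1 (6.38 FPKM), CDH2 (4.45 FPKM) and SNAI1 (3.4 FPKM) followed, and ZEB1 had a mean level of 1.26 FPKM. VIM was at 0.121 FPKM, ZEB2 at 0.0258 FPKM, ESRP1 at 0.0256 FPKM and SNAI2 at 0.0118 FPKM. HepG2 thus carried abundant EPCAM mRNA and mRNA of both cadherins, with ZEB1 and SNAI1 as the repressors among the members above the filter. In sh-NC the libraries of CDH2 overlapped those of CDH1 and those of SNAI1, while CDH1 (3.74 to 5.38 FPKM) lay just above SNAI1 (2.33 to 3.57 FPKM). In sh-LINC01977 CDH1 (6.73 to 10.2 FPKM) lay above CDH2 (4.78 to 5.55 FPKM) and CDH2 above SNAI1 (3.47 to 3.92 FPKM) without overlap. ZEB2 and ESRP1 overlapped each other in level. The lengths that count and FPKM together imply were 30.9 to 32 kb for ZEB2, 7.56 to 7.61 kb for CDH1 and 6.43 to 7.01 kb for VIM. Their longest annotated transcripts were 9.58, 4.89 and 2.67 kb. Levels of different genes, ZEB2 above all, and the size of their ratios are thus set side by side only roughly.

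**Figure D1:**
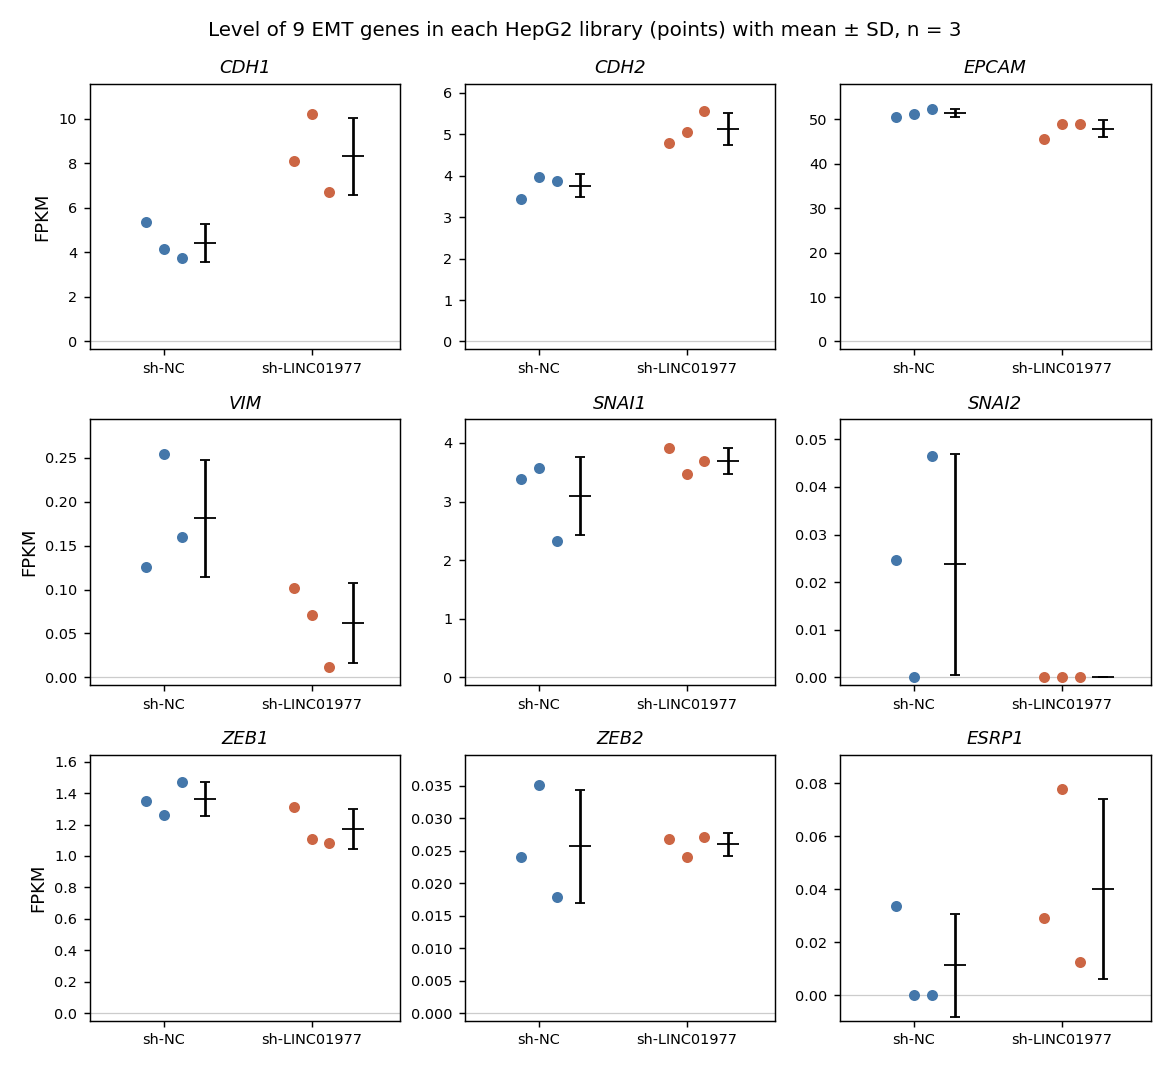
Level in FPKM (vertical axis, a separate scale for each gene) of 9 EMT genes in 3 sh-NC (blue) and 3 sh-LINC01977 (orange) HepG2 libraries; points are libraries, and black bars are the mean ± SD. CDH1 and CDH2 were higher in every sh-LINC01977 library than in any sh-NC library, while EPCAM and VIM were lower in every one and the other genes overlapped. Of all tested genes, 18.8% were higher and 18.3% lower without overlap, and VIM lay below the filter of the test.

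The mRNA of both cadherins of the switch rose in sh-LINC01977, CDH1 1.8-fold and CDH2 1.3-fold. Of the 5 tested members, 2 rose (CDH1 and CDH2) and 0 fell at an adjusted p under 0.05 (edgeR), beside 7.05% of all tested genes higher and 8.07% lower. At an unadjusted p under 0.05, 4 of the 5 passed, beside 30.5% of all tested genes, and by DESeq2 EPCAM was called lower as well. None of the 5 passed a fold change of 2 with P of at most 0.05, the thresholds of the study's methods, which 2.60% of tested genes passed. Over all tested genes edgeR called 948 higher and 1085 lower, and with library totals in place of TMM scaling it called 1455 higher and 768 lower, with a median log2 fold change of 0.065 in place of -0.001. CDH1 and CDH2 were called under both.

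CDH1 (ENSG00000039068, chr16:68737225-68835548, + strand) encodes E-cadherin, which joins neighbouring epithelial cells and anchors to actin through catenins. Its level was 5.38, 4.15 and 3.74 FPKM in sh-NC and 8.11, 10.2 and 6.73 FPKM in sh-LINC01977. Every sh-LINC01977 library lay above every sh-NC library, as did 18.8% of all tested genes, and the spread among the sh-LINC01977 libraries was wide. The means were 4.43 ± 0.854 and 8.33 ± 1.73 FPKM (SD, n = 3 each). CDH1 rose by a log2 fold change of 0.85 (SE 0.2, 95% interval 0.37 to 1.33), or 1.8-fold, at an adjusted p of 0.0341 (edgeR quasi-likelihood test, Benjamini-Hochberg). An exact two-sided permutation test over the libraries gave p = 0.1, the smallest that 3 against 3 allow. The call was lost with no filter (adjusted p = 0.0526, edgeR) and without sh-NC replicate 2 (0.0985), sh-NC replicate 3 (0.0971), sh-LINC01977 replicate 1 (0.0809) or sh-LINC01977 replicate 2 (0.0861), with log2 fold changes between 0.67 and 1.02 over all alternatives. The pseudogene FTLP14, which lies within CDH1 on the same strand, had 87, 40 and 56 counts in sh-NC and 92, 130 and 64 in sh-LINC01977, against 1589 to 4672 for CDH1.

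CDH2 (ENSG00000170558, chr18:27950966-28177446, - strand) encodes N-cadherin, the mesenchymal and neural cadherin that hepatocytes also carry. Its level was 3.44, 3.98 and 3.87 FPKM in sh-NC and 4.78, 5.06 and 5.55 FPKM in sh-LINC01977. The groups did not overlap, as in the 18.8% of all tested genes that were higher without overlap, and the libraries of each lay close together. The means were 3.76 ± 0.284 and 5.13 ± 0.388 FPKM (SD, n = 3 each). CDH2 rose by a log2 fold change of 0.38 (SE 0.085, 95% interval 0.18 to 0.59), or 1.3-fold (adjusted p = 0.0286, edgeR; exact two-sided permutation p = 0.1). Its direction was thus that of CDH1 and not the opposite one that a cadherin switch describes. The call was lost with no filter (adjusted p = 0.0577, edgeR) and without sh-NC replicate 1 (0.0810), sh-NC replicate 2 (0.0517), sh-NC replicate 3 (0.0660), sh-LINC01977 replicate 2 (0.0809) or sh-LINC01977 replicate 3 (0.0835), with log2 fold changes between 0.33 and 0.45 over all alternatives.

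The balance of the cadherins was read as the ratio of CDH1 to CDH2 in FPKM within each library. It was 1.56, 1.04 and 0.968 in sh-NC and 1.7, 2.01 and 1.21 in sh-LINC01977. The groups overlapped, since the lowest sh-LINC01977 library lay below the highest sh-NC library. The mean ratio was 1.19 ± 0.325 in sh-NC and 1.64 ± 0.4 in sh-LINC01977 (SD, n = 3 each), a log2 difference of 0.46 (exact two-sided permutation p = 0.2), which ranged from 0.30 to 0.68 when each library was left out in turn. The summed level of both cadherins was 8.83, 8.14 and 7.61 FPKM in sh-NC and 12.9, 15.2 and 12.3 FPKM in sh-LINC01977. The sums did not overlap between groups (log2 difference 0.71, exact two-sided permutation p = 0.1).

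**Figure D2:**
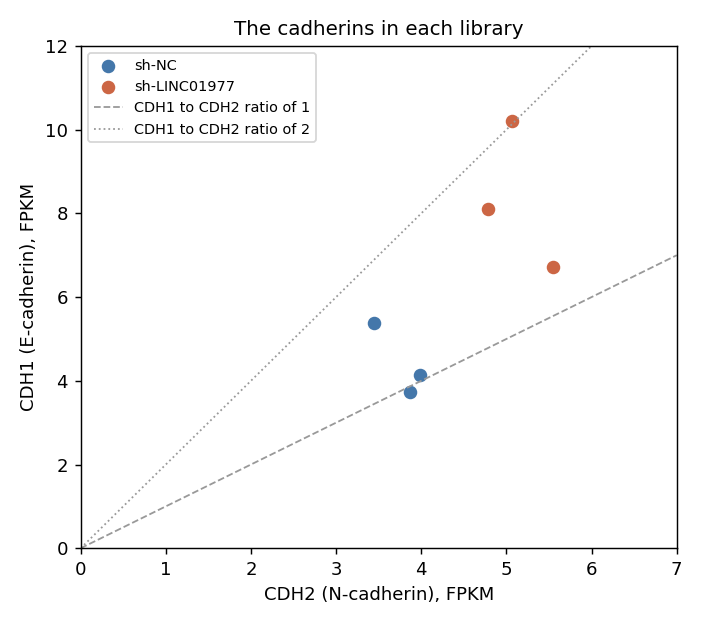
CDH1 against CDH2 in FPKM, 1 point per library (blue, sh-NC; orange, sh-LINC01977), with lines where the ratio of CDH1 to CDH2 is 1 (dashed) and 2 (dotted). The sh-LINC01977 libraries lie above and to the right of all sh-NC libraries, while their ratios (1.21 to 2.01) overlap those of sh-NC (0.968 to 1.56).

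EPCAM (ENSG00000119888, chr2:47345158-47387601, + strand) was the most abundant member in every library. Its level was 50.5, 51.2 and 52.4 FPKM in sh-NC and 45.6, 49 and 48.9 FPKM in sh-LINC01977. All 3 sh-LINC01977 libraries lay just below the lowest sh-NC library, as did those of 18.3% of all tested genes. The log2 difference was -0.17 (SE 0.048, 95% interval -0.28 to -0.05), with an adjusted p of 0.0631 by edgeR and 0.0392 by DESeq2, and the adjusted p ranged from 0.0392 to 0.218 over the alternatives. The EPCAM difference was thus small, opposite in sign to that of CDH1, and called by DESeq2 but not by edgeR. With library totals in place of TMM scaling it was -0.1 (adjusted p = 0.218, edgeR).

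VIM (ENSG00000026025, chr10:17228259-17237593, + strand), the mesenchymal filament gene, was nearly silent in these cells. It had 48, 83 and 64 counts in sh-NC and 38, 30 and 4 counts in sh-LINC01977, or 0.126, 0.255 and 0.16 FPKM against 0.102, 0.0708 and 0.012 FPKM. Every sh-LINC01977 library lay below every sh-NC library, as did those of 18.3% of all tested genes. No such share was computed for genes below the filter, VIM among them. The level in sh-LINC01977 replicate 3 was far below that in the other sh-LINC01977 libraries. The log2 difference was -1.53 (SE 0.66, 95% interval -3.06 to 0.01; adjusted p = 0.294 in the edgeR fit of all genes; exact two-sided permutation p = 0.1). None of the 4 members below the filter passed an adjusted p of 0.05 in that fit, nor an unadjusted p of 0.05, beside 5.36% and 17.2% of all genes in either direction. Those shares are over all 29153 genes, the 13452 above the filter included. A share for genes below the filter was not computed, so these members are not set beside genes of like level. The antisense gene VIM-AS1 overlaps the start of VIM and had 0, 0 and 16 counts in sh-NC and 26, 25 and 8 in sh-LINC01977, and whether the counting used strand is not given in the sources used here. The ratio of CDH1 to VIM was 42.7, 16.3 and 23.4 in sh-NC and 79.8, 144 and 560 in sh-LINC01977, with no overlap (exact two-sided permutation p = 0.1), and its highest value rests on the 4 VIM counts of sh-LINC01977 replicate 3.

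Among the repressors, SNAI1 (ENSG00000124216, chr20:49982999-49988886, + strand) encodes SNAIL, a direct repressor of CDH1. Its level was 3.38, 3.57 and 2.33 FPKM in sh-NC and 3.92, 3.47 and 3.7 FPKM in sh-LINC01977. The groups overlapped, and sh-NC replicate 3 was the lowest library. The log2 difference was 0.19 (SE 0.18, 95% interval -0.24 to 0.63; adjusted p = 0.523, edgeR), so that a SNAI1 change of either sign within that interval was not resolved.

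SNAI2 (ENSG00000019549, chr8:48917768-48921740, - strand) encodes SLUG, the close relative of SNAIL. It had 4, 0 and 8 counts in sh-NC and 0 counts in all 3 sh-LINC01977 libraries. The groups overlapped at 0, because sh-NC replicate 2 held no count either. The adjusted p was 0.336 in the edgeR fit of all genes. The counts are too few to resolve a difference at this depth.

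ZEB1 (ENSG00000148516, chr10:31318495-31529814, + strand) was the ZEB family repressor above the filter. Its level was 1.35, 1.26 and 1.47 FPKM in sh-NC and 1.31, 1.11 and 1.08 FPKM in sh-LINC01977. The groups overlapped, as sh-LINC01977 replicate 1 lay above sh-NC replicate 2. The log2 difference was -0.28 (SE 0.12, 95% interval -0.56 to -0.01), with an unadjusted p of 0.0463 and an adjusted p of 0.156 (edgeR; exact two-sided permutation p = 0.2). The antisense gene ZEB1-AS1, which overlaps the start of ZEB1, had 151, 206 and 198 counts in sh-NC and 287, 313 and 186 in sh-LINC01977 (log2 difference 0.44, adjusted p = 0.239, edgeR), so reads from the pair cannot be told apart there if strand was not used.

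ZEB2 (ENSG00000169554, chr2:144364364-144524583, - strand), the paralog of ZEB1, had 42, 57 and 34 counts in sh-NC and 46, 46 and 43 counts in sh-LINC01977. The sh-LINC01977 libraries lay inside the range of the sh-NC libraries. The log2 difference was -0.05 (SE 0.34, 95% interval -0.83 to 0.73; adjusted p = 0.965 in the edgeR fit of all genes), and its sign flipped under 4 of 12 alternatives. ESRP1 (ENSG00000104413, chr8:94641074-94707466, + strand), an epithelial splicing regulator of FGFR2 and CD44, had 12, 0 and 0 counts in sh-NC and 10, 29 and 4 in sh-LINC01977. The groups overlapped, and the log2 difference of 1.7 had an interval from -1.85 to 5.25 (adjusted p = 0.563 in the edgeR fit of all genes). The ESRP1 difference was 6.77 without sh-NC replicate 1 and 0.78 without sh-LINC01977 replicate 2. Its paralog ESRP2 was the expressed member of the pair, at 8.3 ± 1.87 FPKM in sh-NC and 8.08 ± 1.65 FPKM in sh-LINC01977 (SD, n = 3 each; adjusted p = 0.750, edgeR).

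**Figure D3:**
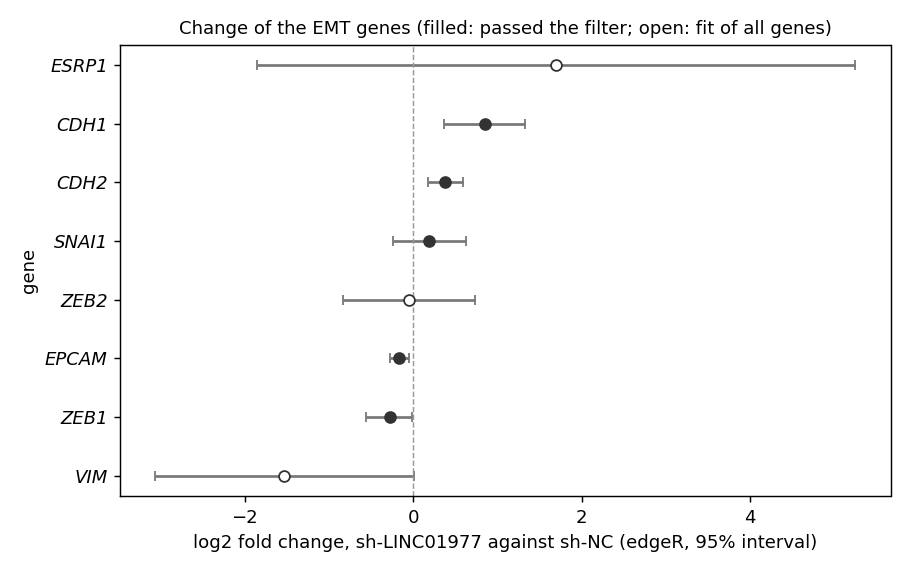
Log2 fold change of sh-LINC01977 against sh-NC (horizontal axis) for 8 EMT genes, with 95% intervals from edgeR; filled points passed the FPKM filter and open points come from the fit of all genes. SNAI2 is left out because it had 0 counts in sh-LINC01977. The intervals of CDH1 (0.37 to 1.33) and CDH2 (0.18 to 0.59) lie above 0, those of EPCAM (-0.28 to -0.05) and ZEB1 (-0.56 to -0.01) lie below 0, and those of VIM, SNAI1, ZEB2 and ESRP1 include 0.

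The genes that work with these members were read in 9 lists of 139 genes, of which 132 had a row and 91 were tested. In these lists 14 genes rose and 12 fell (edgeR, adjusted p under 0.05), or 15.4% and 13.2% of those tested, beside 7.05% and 8.07% of all tested genes, and the median log2 fold change was 0.019 beside -0.001. The counts of single lists are small and several lie near these overall shares. Of 11 tested partners of E-cadherin (catenins, nectins and linkers), 1 was called: NECTIN4 fell (-0.33, SE 0.077, adjusted p = 0.0317, edgeR). The log2 difference was 0.13 for beta-catenin (CTNNB1, adjusted p = 0.109) and 0.37 for plakoglobin (JUP, adjusted p = 0.0560, edgeR), both of which bind the tail of E-cadherin. Of 18 other cadherins with a row, 12 were under 0.1 FPKM in all libraries and 2 were tested (CDH24, log2 difference 1.30, adjusted p = 0.101; CDH16, 0.47, adjusted p = 0.176, edgeR). Among 20 tested tight junction, polarity and desmosome genes, those called included PKP2, a desmosome plaque protein, which rose (0.54, adjusted p = 0.0190), and MARVELD3 (-0.74, adjusted p = 0.0202) and DSC2 (-0.32, adjusted p = 0.0382), which fell (edgeR).

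Epithelial surface genes moved in both directions. Of 8 tested, 2 rose (SPINT1, 0.72, adjusted p = 0.0232; ERBB3, 0.30, adjusted p = 0.00889) and 3 fell. The deepest fall in this list was that of CLDN4, a tight junction claudin, from 21.2 ± 2.45 to 0.554 ± 0.68 FPKM (SD, n = 3 each; log2 fold change -5.32, SE 0.86, adjusted p = 0.00980, edgeR), with AP1M2 (-0.45, adjusted p = 0.0109) and MAL2 (-0.33, adjusted p = 0.00820) beside it. Without sh-LINC01977 replicate 1, which held 1.34 FPKM of CLDN4 against 0.124 and 0.2 FPKM in the others, the log2 fold change of CLDN4 was -7.1. CLDN4 fell in the libraries in which CDH1 rose, and bulk RNA does not show whether the same cells were concerned. Of 7 tested epithelial transcription and splicing factors KLF5 rose (0.64, adjusted p = 0.0161) and FOXA1, a pioneer factor of the liver, fell (-0.34, adjusted p = 0.00705). These adjusted p-values are from edgeR.

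Among 4 tested EMT transcription factors outside the SNAIL and ZEB families, SOX4 rose from 4.52 ± 0.358 to 7.83 ± 0.635 FPKM (SD, n = 3 each; log2 fold change 0.73, SE 0.091, adjusted p = 0.00408, edgeR), TCF3 rose (0.32, adjusted p = 0.0322) and SOX9 fell (-0.24, adjusted p = 0.0487). Of 16 tested corepressors and turnover factors of SNAIL and ZEB proteins, 1 rose (SIN3A, 0.24, adjusted p = 0.0212) and 1 fell (FBXL14, a ubiquitin ligase subunit for SNAIL, -0.76, adjusted p = 0.0416). Of 11 tested genes in a list drawn up around E-cadherin and EpCAM cleavage and endocytosis, FHL2 rose (0.81, adjusted p = 0.00251). So did PSENEN, a gamma-secretase subunit (0.39, adjusted p = 0.0433). Cleavage and endocytosis were not measured, and a place in the list does not make a gene part of either process.

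Mesenchymal genes were split. Of 12 tested, 4 rose and 3 fell, with a median log2 fold change of 0.094. ITGA5, a fibronectin receptor subunit, rose from 0.303 ± 0.0235 to 0.767 ± 0.0741 FPKM (log2 fold change 1.26, SE 0.14), and S100A4 from 19.4 ± 2.58 to 40.5 ± 7.63 FPKM (1.0, SE 0.17). The sh-NC libraries of ITGA5 lay at 0.275 to 0.318 FPKM, under the filter of 0.5 FPKM. ITGA5 was thus tested, and counted among the genes that rose, only through its sh-LINC01977 level. In the edgeR fit of all genes its log2 fold change was 1.24 (adjusted p = 0.00386). MMP14 (0.61) and fibronectin itself (FN1, 0.26, named after its values were seen) also rose. FN1 was already at 435 ± 13.6 FPKM in sh-NC, against 546 ± 23.7 FPKM in sh-LINC01977, so its mRNA was abundant in these cells before the change. The matrix genes SPARC (15.1 ± 1.37 to 8.94 ± 0.366 FPKM) and TGFBI (42.9 ± 3.43 to 25.6 ± 1.68 FPKM) fell, with log2 fold changes of -0.82 (SE 0.076) and -0.81 (SE 0.077), as did TAGLN (-0.48). The adjusted p-values of these 7 genes ranged from 0.00160 to 0.0161 (edgeR; SD, n = 3 each). MMP2, a matrix protease, had 147, 185 and 196 counts in sh-NC and 284, 250 and 199 in sh-LINC01977 (log2 difference 0.43, adjusted p = 0.194, edgeR), and MMP9 had 0, 0 and 6 against 0, 4 and 0.

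**Figure D4:**
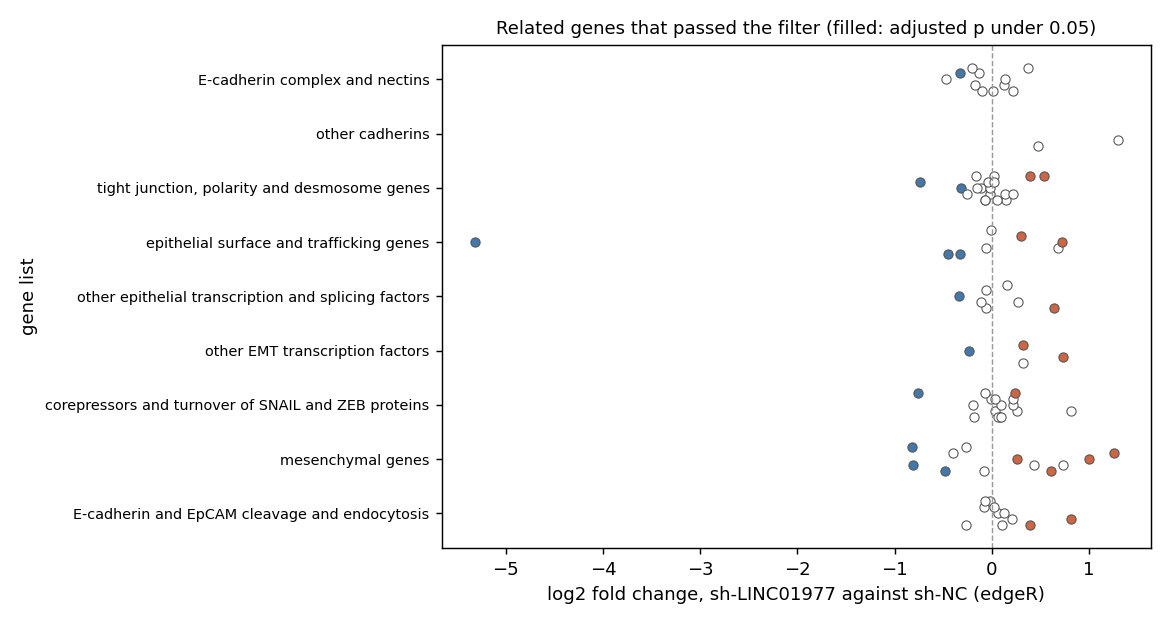
Log2 fold change of sh-LINC01977 against sh-NC (horizontal axis) for the 91 tested genes of 9 lists related to the EMT genes; each circle is 1 gene, filled orange where it rose and blue where it fell at an adjusted p under 0.05 in edgeR. Genes that rose and genes that fell occur together in the tight junction, surface, transcription factor, corepressor and mesenchymal lists, and CLDN4 (-5.32) lies farthest from 0.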

How the data were processed

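RNA of 6 HepG2 libraries (3 sh-NC, 3 sh-LINC01977) was analysed from a single table. Its gene counts are whole and unnormalized as deposited. Its FPKM values, scaled by the authors for gene length and depth, were used for levels. The submitters' processing notes name bcl2fastq 2.0, HISAT2, StringTie, DESeq2, limma and hg38, without roles. The annotation release is not given in the sources used here. A count of 4 occurred 8101 times over genes and libraries, a count of 3 2780 times and a count of 5 1758 times, so single counts may not be independent fragments.

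The quasi-likelihood test of edgeR 4.0.16 (R 4.3.3) was run with TMM scaling and Benjamini-Hochberg adjustment over every gene whose FPKM averaged 0.5 or more, after a trial on simulated data. Genes below the filter hold 0.422% to 0.514% of the counts and were read from a fit of all genes. Standard errors were taken from the F statistic. Single values were compared by exact two-sided permutation tests. limma 3.58.1 on log2(FPKM + 0.1) and log2(FPKM + 1), DESeq2 1.42.0, other scalings and filters, a replicate block and leaving out each library were alternatives.

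The genes named are the 10 members, LINC01977, MMP2 and MMP9 and, in each related list, up to 3 called genes per direction with the largest fold change, except that not every such gene is reported here. Other genes named (CTNNB1, JUP, CDH16, CDH24, ESRP2, FN1, COL1A1, COL3A1, PDGFRB, CD79A, KRT19, SPP1, LYZ, PTPRC, overlapping genes and those of the KEGG list) were chosen after their values were seen. Members and lists were chosen with earlier results of these data known. Groups came from the labels.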

Additional observations from a re-analysis of the deposited data

How the results depend on the processing

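The 948 genes called higher became 1455 with library totals, and 549 to 669 with 1 library left out. The 1085 called lower became 627 to 738 with 1 library left out. Of the 5 tested members, the 2 called higher became 0 with no filter and 0 to 1 with 1 library left out, and the 0 called lower became 1 (EPCAM) with DESeq2. The 14 related genes called higher became 22 with library totals and 22 with DESeq2, and the 12 called lower became 6 to 9 with 1 library left out. The cause of these shifts was not tested, and the fits with 1 library left out also had fewer libraries.

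The replicate numbers did not pair the libraries: same-numbered libraries had correlations of deviations of -0.03, 0.01 and 0.06. With the replicate block, 636 genes were higher and 754 lower, the members called higher were still 2 (CDH1, 0.84; CDH2, 0.38), and related genes called lower became 7.

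The sign of ZEB2 (-0.05) turned to 0.02 with library totals, 0.01 and 0 with limma on log2(FPKM + 0.1) and log2(FPKM + 1), and 0.24 without sh-NC replicate 2, within -0.25 to 0.24 with 1 library left out. MMP9 (-0.6) turned to 3.42 without sh-NC replicate 3, within -4 to 3.42. Among the related genes, the call was lost under 10 of 14 alternatives for NECTIN4 and FBXL14, 11 for DSC2 and SOX9, 8 for SIN3A, 7 for TCF3 and PSENEN, 5 for SPINT1 and TAGLN, 4 for PKP2 and MARVELD3 and 1 for KLF5. Of the alternative values of single genes and the cadherin ratio, 411 kept direction and call, 94 lost the call and 1 gained it. SNAI2 and ESRP1 had at most 8 and 29 counts in any library, which limits what their values can show.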

Other observations

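The adherens junction pathway of the KEGG annotation deposited with the counts, a list chosen after the data were seen, holds CDH1, SNAI1 and SNAI2 among its 72 genes. Of the 63 that were tested, 9 rose and 4 fell at an adjusted p under 0.05 (edgeR), or 14.3% and 6.35%, beside 7.05% and 8.07% of all tested genes. The median log2 fold change was 0.029 beside -0.001 over all tested genes. EGFR, the receptor of epidermal growth factor, rose by a log2 fold change of 0.53 (SE 0.069, adjusted p = 0.00448, edgeR) and MET, the receptor of hepatocyte growth factor, by 0.40 (SE 0.074, adjusted p = 0.0161, edgeR). TGFBR2, a receptor of TGF-beta, an inducer of EMT in epithelial cells, had a log2 fold change of -0.61 (SE 0.047, adjusted p = 0.00106, edgeR).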
